A study of Mus musculus with 18 samples.

Results

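Islets of Langerhans are clusters of hormone-secreting cells scattered through the exocrine pancreas, and the RNA of islets from wild-type (WT) mice is described here from 6 libraries, which are all the libraries of that genotype among the 18 in the study. They were chosen by genotype label alone. The mice were 6 weeks old, on the FVB background, and carried neither IAPP transgene; the 12 other libraries came from mice with a human or rodent IAPP transgene and were not used. Per the labels, RNA came from about 165 ± 6 islets per mouse, had an RNA integrity number of 8.4 to 9.5, and was sequenced after Ribo-Zero depletion of ribosomal RNA, so that noncoding RNAs are seen beside mRNA. No sex, time of day or islet isolation date is given in the sources used here. The libraries are called WT 1 to WT 6, in the order of the animal numbers in their labels, and what those numbers mark beyond identity is not stated.

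Each islet holds several endocrine cell types. Beta cells secrete insulin together with islet amyloid polypeptide (IAPP, also called amylin), alpha cells glucagon, delta cells somatostatin and PP cells pancreatic polypeptide. The hormones are made as precursors on ribosomes at the endoplasmic reticulum, cut by prohormone convertases and stored in dense granules with granins. Islets are isolated with a collagenase digest of the pancreas, so a preparation can carry acinar and duct tissue along with the vessels, stroma and macrophages of the islet itself. In bulk RNA, fewer cells of a type and less RNA per cell cannot be told apart.

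Library totals were 155588845 ± 8885905 estimated counts (mean ± SD, n = 6; range 144291287 to 166233667), so that 1 CPM (the usual scale on which every library has the same total) stood for at least 144 counts in every library. No 2 libraries were copies of each other: over the 15 pairs, the chi-square statistic per degree of freedom was between 40.7 and 223. Log2 levels of the 15 pairs correlated across genes at 0.973 to 0.99; genes are not independent replicates. WT 5 stood furthest apart, with a score of 33.1 on a first principal component that held 40.1% of the variance, and WT 6 lay at the other end with -22.0. The share of values above 0 that were not whole numbers was 49.1% in WT 5 and 47.0% in WT 4 against 33.9% to 38.8% in the other 4 libraries. The part of that difference in any result was not tested. Xist was at 0.0631 to 0.205 CPM and the Y-linked Ddx3y at 90.7 to 114 CPM in all 6 libraries.

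The single most counted RNA of the islets was no mRNA. Rn7s1, a 7SL RNA, which is the scaffold of the signal recognition particle that docks ribosomes making secreted proteins onto the endoplasmic reticulum, took 23.01% ± 2.41 of all counts (SD, n = 6; range 19.6% to 25.6%). 7SL RNA has closely similar copies in the genome, so this level depends on how shared reads were assigned.

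Rn7s1 and the mitochondrially encoded genes together held 26.2% ± 2.06 of counts (range 23.1% to 28.5%), and removing them changed the picture of concentration. With all counts, 38 gene symbols held 50% of the RNA counted, 1484 held 75% and 4506 held 90%. Without Rn7s1 and the genes whose symbol begins with mt-, 451 symbols were needed for 50%, 2433 for 75% and 5481 for 90%. The top 10 symbols held 45.0% of all counts and 27.5% of counts after that removal. Of 54186 symbols in the table, 34048 had a count in at least 1 library, 13255 reached 1 CPM in all 6 libraries, 933 reached 100 CPM and 29 reached 1000 CPM. With the reduced denominator 13755 reached 1 CPM in all 6 libraries, and protein-coding genes rose from 67.5% ± 2.31 to 91.4% ± 0.787 of counts.

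**Figure D1:**
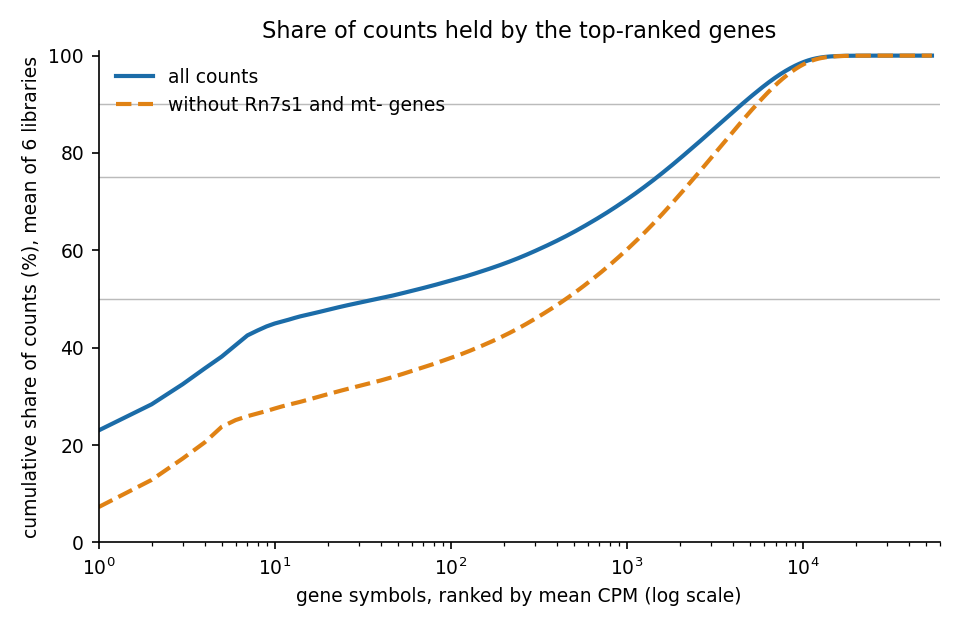
Cumulative share of counts (y axis, percent, mean of the 6 libraries) against gene symbols ranked by mean CPM (x axis, log scale), for all counts (solid line) and without Rn7s1 and mt- genes (dashed line); grey lines mark 50%, 75% and 90%. The solid line crosses 50% at 38 symbols and the dashed line at 451.

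The 8 hormone genes held 15.5% ± 1.0 of all counts (SD, n = 6) and 20.9% ± 1.04 without Rn7s1 and mt- genes. By counts, Ins2 ranked 2 at 53649 ± 2739 CPM and Ins1 ranked 3 at 41234 ± 1734 CPM; these are the insulin genes of the mouse, and without Rn7s1 and mt- genes they ranked 1 and 2, at 72668 ± 3012 and 55845 ± 1425 CPM. Iapp, the amylin gene, had 32318 ± 4418 CPM (rank 4), and Gcg, the proglucagon gene, 23765 ± 3573 CPM (rank 6). Ppy, which encodes pancreatic polypeptide, had 1644 ± 394 CPM (rank 23) and Sst, the somatostatin gene, 1420.1 ± 184 CPM (rank 25). Peptide YY (Pyy) had 532 ± 93.7 CPM, and the ghrelin gene Ghrl only 2.63 ± 0.591 CPM, rank 12011. Ins2 and Ins1 are closely similar in coding sequence, so the split between them depends on how shared reads were assigned.

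Counts per gene grow with transcript length, so levels of different genes are compared per kilobase of annotated exon, scaled as CPM without Rn7s1 and mt- genes. On this per-length scale Ins2 was at 107920.1 ± 4796 and Ins1 at 102455 ± 2871 (SD, n = 6), with Iapp next at 87516 ± 11391. The gap between Ins2 and Ins1 was close to the SD of Ins2. The order of Ins2 and Ins1 stays the same with the longest transcript as length, but the gap widens to 130100 against 86400, so the size of that gap rests on the annotation. Gcg had a per-length level of 41947 ± 6011, Ppy 8679.5 ± 2079 and Sst 5198 ± 661. Above all of them stood Rn7sk, the 7SK RNA that holds the elongation factor P-TEFb inactive, with a per-length level of 194874 ± 20352. Rpph1, the RNA of ribonuclease P, had a per-length level of 30878 ± 4249.9 and Rmrp, the RNA of ribonuclease MRP, 8472 ± 1358. The 3 short noncoding RNAs therefore rank higher per length than by counts, where Rn7sk was at 24419.7 ± 2354 CPM (rank 5), Rpph1 at rank 13 and Rmrp at rank 37.

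The insulin and glucagon genes sit at chromosome 19, 52264297 to 52265476, plus strand (Ins1), chromosome 7, 142678656 to 142743381, minus strand (Ins2, whose annotated interval spans far more than the coding part) and chromosome 2, 62474530 to 62483650, minus strand (Gcg), all on GRCm38 from GENCODE M21. The RefSeq promoters (GRCm38.p6, 250 bases before to 50 after the start site) of Ins1 and Gcg are shown, 1 for a beta cell hormone and 1 for the alpha cell hormone. Capitals mark CATCTG, the core of the E-boxes that NeuroD1 complexes bind in insulin promoters, searched on both strands (CAGATG is the same motif on the other strand), and in Gcg also the usual letters of a TATA box, TATAAA.
Ins1 promoter: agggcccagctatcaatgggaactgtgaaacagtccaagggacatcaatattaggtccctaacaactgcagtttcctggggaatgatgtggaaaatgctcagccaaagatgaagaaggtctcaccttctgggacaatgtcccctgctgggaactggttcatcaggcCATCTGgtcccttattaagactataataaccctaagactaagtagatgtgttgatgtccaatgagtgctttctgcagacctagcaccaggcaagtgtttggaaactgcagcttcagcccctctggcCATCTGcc
Gcg promoter: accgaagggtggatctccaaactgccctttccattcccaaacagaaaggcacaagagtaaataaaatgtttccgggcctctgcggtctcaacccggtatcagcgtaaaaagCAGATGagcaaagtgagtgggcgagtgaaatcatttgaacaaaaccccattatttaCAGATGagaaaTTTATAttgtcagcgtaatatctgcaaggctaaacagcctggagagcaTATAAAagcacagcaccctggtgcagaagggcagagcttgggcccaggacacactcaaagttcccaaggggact
The Ins1 window (chr19:52264047-52264346) held CATCTG at -84 and 42 from the start site, and the Gcg window (chr2:62483604-62483903, minus strand) held its 4 matches between -139 and -24. Over all 32851 RefSeq promoters of that length, 17.2% held CATCTG and 13.6% TATAAA. Of 7 hormone genes with an entry, 4 held CATCTG and 2 TATAAA in any of their promoters, a count per gene that is not on the scale of the share per promoter. A match is a description of letters and not a site shown to be bound.

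Genes of the secretory granule came next. The 20 granin and granule genes held 3.23% ± 0.218 of counts. Chga, chromogranin A, was at 10212 ± 944 CPM (rank 8) and Scg2, secretogranin II, at 5883 ± 324 CPM (rank 10). Pcsk2, the convertase PC2, had 3782 ± 153 CPM and Cpe, carboxypeptidase E, 2225 ± 137 CPM, while Chgb, Scg3 and Scg5, further members of the granin and chaperone set, had 2105 ± 306, 1597 ± 119 and 1306 ± 63.9 CPM. Per length, Chga was at 9777 ± 841 and Pcsk2, a long transcript, at 1262 ± 39.9.

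Genes that mark the beta cell held 1.06% ± 0.06097 of counts over 21 members, all tested. That list leaves out the insulin genes and Iapp, while the alpha cell list below includes Gcg, so their shares cannot be compared. G6pc2, an islet glucose-6-phosphatase, led at 2176 ± 405 CPM, followed in counts by Ero1b, an oxidoreductase of the beta cell endoplasmic reticulum, at 2038 ± 169.6 CPM; Ero1b had no GENCODE match by symbol, so no per-length level. Slc2a2, the glucose transporter GLUT2, was at 1213 ± 112 CPM, Glp1r, the GLP-1 receptor, at 1089.9 ± 133 CPM, Abcc8, the sulfonylurea receptor of the KATP channel, at 641 ± 82.3 CPM and Mafa, which activates insulin transcription, at 289 ± 52.7 CPM. Ucn3, urocortin 3 of mature beta cells, had 307 ± 20.4 CPM. The 14 alpha cell genes, mostly Gcg, held 2.49% ± 0.363 of counts, with Ttr, transthyretin, at 593 ± 77.998 CPM and Irx2, a transcription factor gene, at 11.6 ± 1.38 CPM. Hhex, the delta cell factor, was at 9.93 ± 1.72 CPM.

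Markers of vessels, stroma, macrophages, glia and ducts were present at low shares. Endothelial genes held 0.08099% ± 0.00631 of counts, with Kdr, the VEGF receptor 2, at 163 ± 18.002 CPM and Pecam1 at 87.7 ± 5.82 CPM. Stromal genes held 0.106% ± 0.0151, with Rgs5, a pericyte gene, at 379 ± 39.005 CPM. Macrophage genes held 0.0161% ± 0.00101, led by the complement gene C1qa at 56.3 ± 3.88 CPM, and Schwann cell genes 0.00819% ± 0.0008203. Duct markers were at 0.0579% ± 0.00331. Krt19, a duct keratin, was only a small part of that, at 5.12 ± 0.561 CPM, and Krt7, Epcam, Spp1, Krt8 and Krt18 were higher. Which cells the share of this list comes from was not tested. Of 15 lymphocyte genes only 2 reached a mean of 1 CPM: Cd79a, a B cell receptor chain, at 14.9 ± 1.56 CPM and the antibody gene Ighm, while Cd3e of T cells lay at 0.00624 to 0.0542 TMM-scaled CPM. Ms4a1, a further B cell gene that was looked up after the values were seen, lay at 0.0186 to 0.0663. Adipocyte Adipoq had 0 counts in all 6 libraries, where 3 counts would be 0.0180 to 0.0208 CPM.

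**Figure D2:**
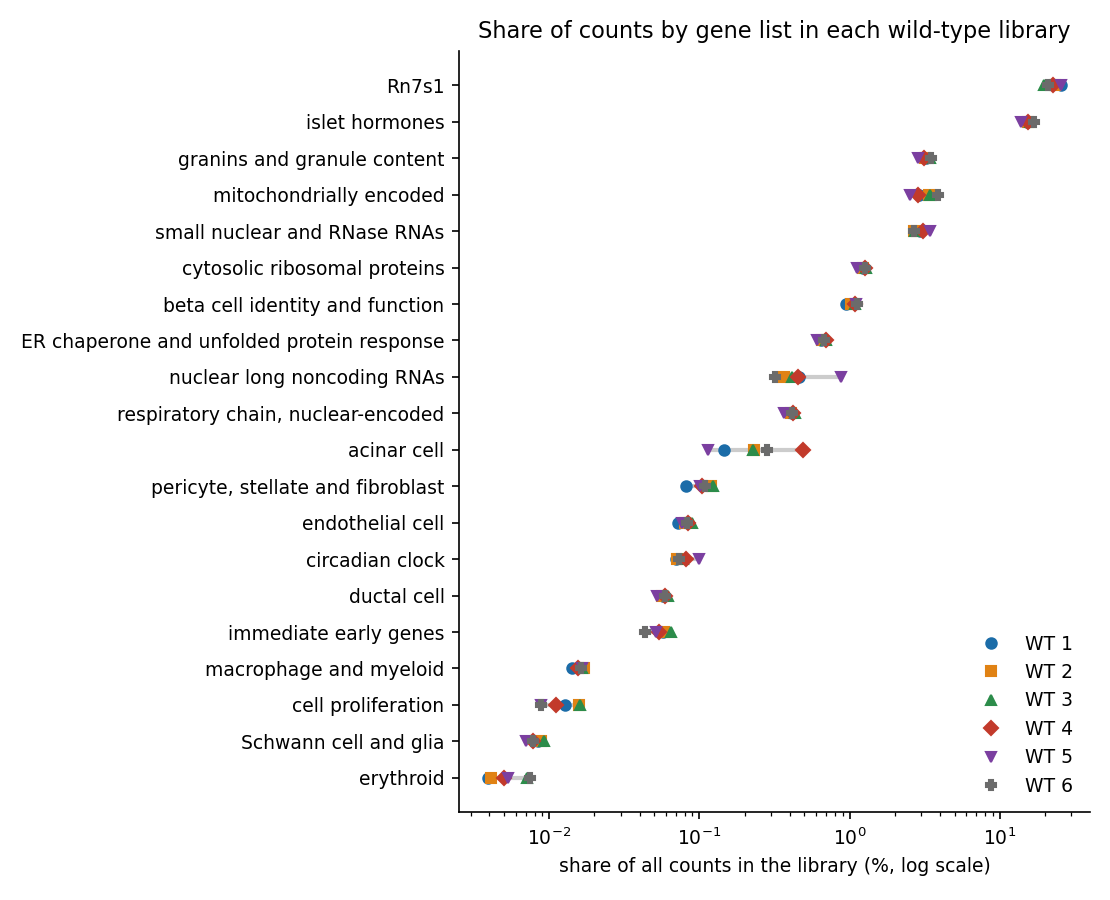
Share of all counts (x axis, percent, log scale) held by each gene list (y axis); the 6 markers stand for the libraries WT 1 to WT 6 and grey lines join the lowest and the highest. Acinar genes run from 0.114% to 0.487% and nuclear long noncoding RNAs reach 0.877% in WT 5.

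The 37 mitochondrially encoded symbols held 3.16% ± 0.489 of counts, and 2.09% ± 0.365 came from the 2 mitochondrial ribosomal RNAs. The ribosomal RNA mt-Rnr2 was at 19798 ± 3399 CPM and mt-Co1, cytochrome c oxidase subunit 1, at 8313 ± 1043 CPM. The subunit mt-Co2 was almost empty, with 0, 0, 0.587, 5.83, 3.85 and 5.99 TMM-scaled CPM in WT 1 to WT 6, although it belongs to the same complex. A pseudogene model on chromosome 1, Gm28661 (24614885 to 24615565), whose 651 stretches of 31 bases all occur in mt-Co2, carried 2155 ± 339.8 CPM. Likewise Gm28437 had 2613 ± 183 CPM against 496 ± 76.4 for mt-Co3, and Gm10925 651 ± 138 CPM against 47.04 ± 15.3 for mt-Atp6. The 6 such models, all within chromosome 1 at 24612407 to 24616197 on GRCm38 and with at least 97.2% of their 31-base stretches found in 1 mitochondrial gene, held 0.668% ± 0.0704 of counts and 0.904% ± 0.0849 of those left after the mt- genes were removed. They were found after the values were seen. Among 15 mt- symbols tested for variation 6 had a CV of at least 30%, beside 4.36% of all genes tested. Without WT 5 or without WT 6, 3 did. With each mt- gene summed with its paired model, the CV of CPM was lower. It went from 105% to 15.7% for mt-Co2 and from 44.7% to 25.2% for mt-Nd4l. For mt-Atp6 it went from 32.4% to 19.997% and for mt-Nd3 from 31.3% to 7.43%. The models of mt-Co2 and mt-Atp6 held most of the sum and alone had CVs of 15.8% and 21.1%. Those drops therefore follow from the weight of the model and say nothing of shared reads. The models alone were at 10.4% for mt-Nd3 and 67.2% for mt-Nd4l, above the sums. The part of read assignment in the count of 6 was not tested. The cytochrome b gene mt-Cytb was at 543, 590, 598, 381, 309 and 772 TMM-scaled CPM and mt-Nd1, of complex I, at 828, 829, 899.5, 633, 519.8 and 1083, both highest in WT 6 and lowest in WT 5. Levels and variation of the paired mt- genes are therefore uncertain, and removal by symbol does not remove all mitochondrial sequence.

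Variation between the libraries was measured as the coefficient of variation (CV) of CPM on library sizes scaled by the trimmed mean of M values (TMM), after subtracting the part due to counting. Of 13908 genes with a mean of at least 1 CPM, 607 had a CV of at least 30% (4.36%), and the median was 8.57% (quartiles 5.72% to 13.4%). Among 10569 genes with a mean of at least 5 CPM, 194 did (1.84%). The share depended on level: it was 12.4% at 1 to 5 CPM, 2.49% at 5 to 20, 1.27% at 20 to 100, 1.57% at 100 to 1000 and 6.06% (2 of 33 genes) above that. By a chi-square test of dispersion with Benjamini-Hochberg adjustment, 13380 genes (96.2%) varied beyond counting error, most of them by a small amount at this depth. Just inside the threshold lay Ftx (30.04%) and Tef (30.1%), and just outside it Zfpm1 (29.98%) and Atp2b3 (29.97%). Nothing in the labels ties the libraries to batches, and differences between mice, islet isolations and library preparations cannot be told apart.

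**Figure D3:**
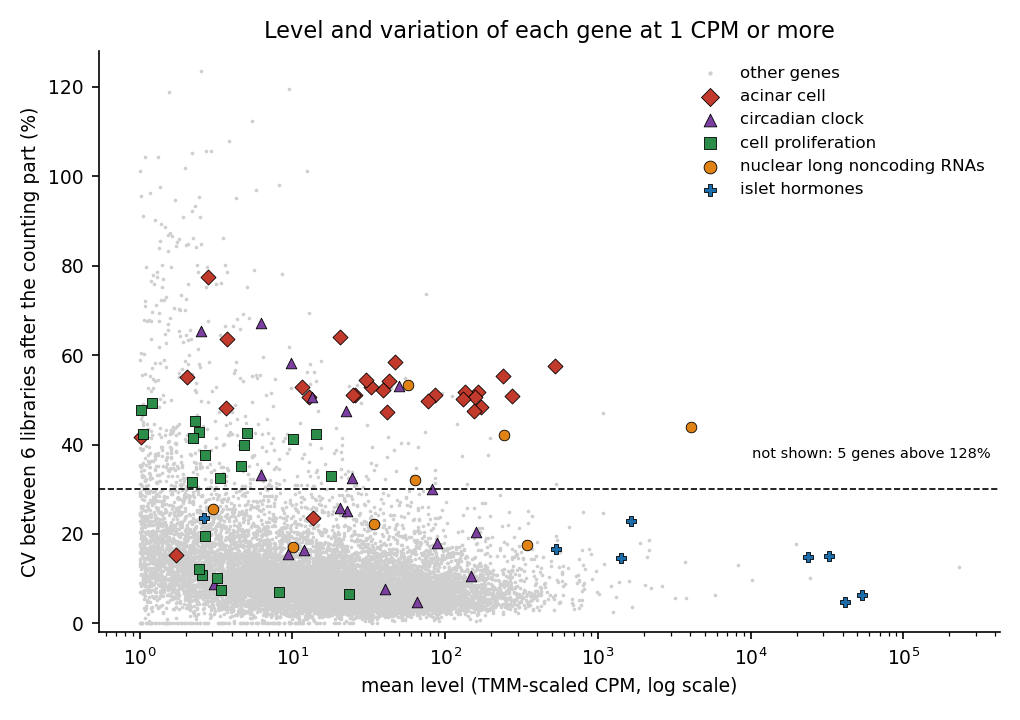
Mean level (x axis, TMM-scaled CPM, log scale) and CV between the 6 libraries after the counting part (y axis, percent) for each gene at 1 CPM or more, with 5 lists marked; the dashed line is at 30% and 5 genes above the top of the axis are not drawn. Of the 29 acinar genes 27 lie above the line, and all 8 hormone genes lie below it.

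The medians of the hormone, alpha cell and delta cell lists lay above that of all genes, and that of the beta cell list lay close to it. None of 8 hormone genes, 21 beta cell genes, 13 alpha cell genes or 8 delta cell genes tested reached a CV of 30%, a count near the background for lists of this size (4.36% of all genes), and the medians were 14.9%, 8.62%, 12.9% and 15.3% beside 8.57% over all genes tested. Ins2 was at 52069.9, 54357, 50522, 52394, 52564 and 60161 TMM-scaled CPM in WT 1 to WT 6, a CV of 6.34%, and Ins1 at 40667, 40831, 39648, 41323, 39936 and 45040, a CV of 4.75%. WT 6 had the highest level of both insulin genes. Gcg was at 23811, 26051, 24992, 23850.4, 17022 and 26809.6, so WT 5 was the lowest library and the other 5 lay close together. Ppy was at 1923, 1180.1, 1800, 1807, 1987 and 1143, with WT 2 and WT 6 lower than the other 4 libraries. In the granule list 1 of 20 members passed: Nnat, neuronatin, an imprinted gene that aids handling of secretory proteins, at 138, 193, 176, 134, 177 and 331, highest in WT 6. Without WT 6 its CV fell from 37.7% to 14.9%.

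The genes that varied least at 100 CPM or more had a CV of at most 2.16%. Zfp106, an RNA-binding zinc finger gene, was at 159, 158, 156, 159, 159.9 and 159 TMM-scaled CPM (CV 0.659%), and Ap3d1, a subunit of the AP-3 vesicle adaptor, at 170.3, 171, 167, 169, 170.2 and 168 (CV 0.7797%). Tacc1, Znfx1, Mbtps1, Slc8a1, Tmed8, Eif4h, Rcan3 and Slc25a36 followed. Of longer lists, none of 82 cytosolic ribosomal protein genes (median 5.53%), 82 respiratory chain entries (6.11%) or 26 endoplasmic reticulum chaperone genes (6.99%) reached 30%. Nor did any of 20 cholesterol synthesis genes (9.21%), 14 endothelial genes (6.52%) or 16 macrophage genes (10.6%). The cholesterol synthesis and macrophage medians lay above the 8.57% of all genes tested. For the 4 shorter of these lists such a count is near the background. For the ribosomal protein and respiratory chain lists it is near that of genes at 20 to 100 CPM (1.27%) and 100 to 1000 CPM (1.57%). Actb, cytoplasmic actin, was at 683, 698, 719, 699.9, 658 and 716 and Eef1a1, a translation elongation factor, at 3239.9, 3237, 3147, 3212, 2882 and 3449.5.

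Genes of the exocrine pancreas varied together. Of 33 acinar genes 29 reached the mean of 1 CPM needed for testing. Of these 27 had a CV of at least 30%, beside 4.36% of all genes tested, and the median was 51.2% beside 8.57%. All 29 were highest in WT 4 (11.6% of all genes tested were), and 26 were lowest in WT 5 (27.1% of all genes). They held 0.146%, 0.231%, 0.229%, 0.487%, 0.114% and 0.283% of counts in WT 1 to WT 6, a range of 4.26-fold. Amy2a5, an amylase gene, was at 244, 572, 449, 1049, 232 and 596 TMM-scaled CPM; its near-identical amylase copies share reads. Cela2a, an elastase, was at 94.7, 138, 132, 298, 82.7 and 197 and Cpb1, carboxypeptidase B1, at 121, 166, 149.7, 321, 78.7 and 201. Each placed WT 4 above the other 5 libraries. Pnlip, pancreatic lipase, was at 168, 244, 245, 512, 126 and 351 and Ctrb1, chymotrypsinogen, at 164, 220, 204, 489, 106 and 251. Amy2a5, Pnlip and Ctrb1 all put WT 4 highest and WT 5 lowest. Gp2, a zymogen granule membrane protein, ranged from 6.89 to 45.998. Without WT 4, 23 acinar genes still passed, although the CV of Ctrb1 fell from 55.3% to 29.5%. Of the 2 members that did not pass, Bhlha15, a transcription factor of secretory cells, had a CV of 23.6%; it was chosen after its value was seen.

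The regenerating family, secreted lectins made by acinar cells and by stressed islets, also varied. Of 7 members 4 were tested and all 4 passed, beside 4.36% of all genes tested. All 4 were highest in WT 4. Reg2 was at 9.62, 11.5, 2.83, 22.1, 1.14 and 2.03 TMM-scaled CPM, high in WT 1, WT 2 and WT 4 and low in WT 3, WT 5 and WT 6, and Reg1 at 24.1, 38.1, 33.3, 74.9, 18.8 and 34.2, highest in WT 4 and lowest in WT 5 like the digestive enzymes above. Reg3b was at 5.299, 6.09, 1.15, 7.699, 2.399 and 2.92. In the duct list 2 of 11 passed, both at 1 to 5 CPM, where 12.4% of all genes did. They were Tff2, a trefoil peptide, at 1.32, 2.35, 1.46, 4.44, 0.886 and 2.16 and Cftr, the chloride channel of duct cells, at 0.637, 1.34, 0.861, 0.651, 1.89 and 1.39; Tff2 was highest in WT 4, while Cftr was highest in WT 5. The duct keratin Krt19 was even, at 4.68 to 5.76.

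**Figure D4:**
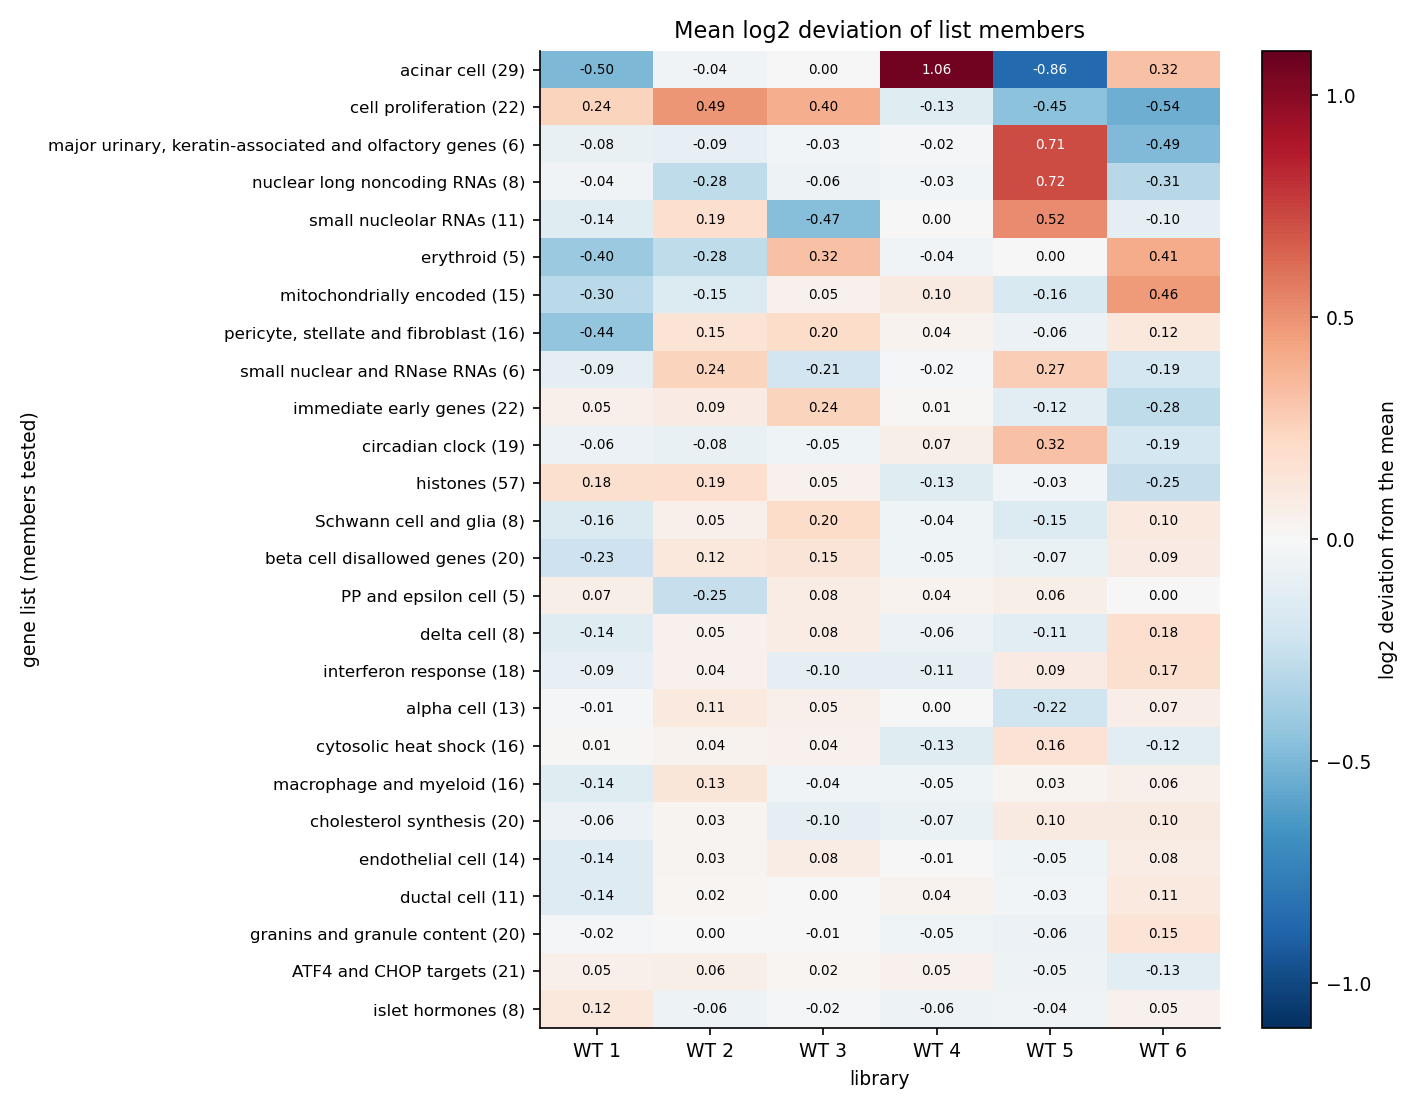
Mean log2 deviation of the tested members of each list (y axis, number tested in brackets) from their mean over the 6 libraries (x axis, WT 1 to WT 6), with red for higher and blue for lower. Acinar genes stand at 1.06 in WT 4 and -0.86 in WT 5, nuclear long noncoding RNAs at 0.72 in WT 5, and proliferation genes at -0.54 in WT 6.

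Long RNAs that stay in the nucleus set WT 5 apart. Malat1, an abundant noncoding RNA of nuclear speckles, was at 4063, 3112, 3251, 3709, 7589 and 2688 TMM-scaled CPM. WT 5 lay apart above the other 5 libraries. Meg3, an imprinted noncoding RNA of the Dlk1-Dio3 domain, was at 223, 181, 199.7, 220.4, 449.7 and 186, and Kcnq1ot1, which lies antisense in the imprinted Kcnq1 gene, at 52.2, 36.5, 46.1, 51.9, 117 and 37.6. Neat1, the RNA that builds paraspeckles, had 103 in WT 5 and 43.9 to 63.9 in the others. Rian, another RNA of the Dlk1-Dio3 domain, had 463 in WT 5 and 299.8 to 337 in the others. Of 13 listed RNAs 8 were tested. All 8 were highest in WT 5, as were 25.8% of all genes tested and 42.4% of the 557 long noncoding genes tested. A CV of at least 30% was reached by 4 of the 8, beside 4.36% of all genes tested, and by 0 without WT 5. Lncpint and Slc38a6, an amino acid transporter gene, showed the same shape, with 33.1 and 90.96 in WT 5 against 8.45 to 16.5 and 27.02 to 41.6 elsewhere.

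The same library led a class of unnamed gene models. GENCODE gives the class TEC to regions with transcript evidence that await experimental testing. Of 188 TEC models tested, 118 (62.8%) were variable, beside 4.36% of all genes tested. Of the 118, 111 were highest in WT 5, and 113 of the 188 lie within a protein-coding gene on the same strand. Without WT 5, 33 were variable. WT 5 was the highest library for 294 of the 607 variable genes (48.4%) against 25.8% of all genes tested, and without it 392 genes were variable, of which 331 were among the 607. Of the small nucleolar RNAs, guides for modifying other RNAs, 11 of 139 listed were tested. Of these 5 passed, beside 4.36% of all genes tested, and 1 did without WT 5. Snord17 was at 11.01, 13.7, 6.54, 13.98, 22.3 and 10.9 TMM-scaled CPM and Snora73b at 9.16, 12.6, 6.61, 12.5, 19.9 and 10.6. In WT 5 the alpha cell, respiratory chain and ribosomal protein lists lay at -0.22, -0.12 and -0.09 on the log2 scale. The fractional share of values was also highest in WT 5, and its part was not tested.

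Circadian clock genes varied in opposite senses. The clock is a feedback loop in which CLOCK and BMAL1 (Arntl) bind E-boxes to drive Per, Cry, Dbp and the Rev-erb genes. The PER, CRY and REV-ERB proteins shut the loop down. Of 20 clock genes 19 were tested. A CV of at least 30% was reached by 9 of them, and by 4 without WT 5, beside 4.36% of all genes tested. Their median was 25.7% beside 8.57%. Arntl was at 16.9, 16.4, 10.5, 6.26, 4.88 and 4.04 TMM-scaled CPM and Nfil3, a repressor of D-box genes, at 12.3, 10.6, 5.78, 3.61, 2.31 and 3.001. Both were highest in WT 1 and WT 2 and low in WT 4, WT 5 and WT 6. Dbp, a D-box activator, was at 29.98, 33.6, 42.3, 59.8, 100.1 and 35.4, and Ciart, a repressor of the loop, at 1.38, 1.32, 1.78, 3.29, 5.54 and 1.75. Those genes were highest in WT 5 and lowest in WT 1 and WT 2. Tef, a relative of Dbp, and Nr1d2, REV-ERB beta, were also highest in WT 5, at 58.1, 55.5, 74.4, 91.1, 121 and 91.3 and 119, 137, 146, 165, 211 and 179. Clock itself was at 168, 163, 150.5, 135, 132 and 135, a CV of 10.5%. The time of day of collection is not given in the sources used here, and its part was not tested.

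Promoters of the clock genes are shown for the pair that moved in opposite senses (RefSeq, GRCm38.p6). Capitals mark CACGTG, the E-box of CLOCK and BMAL1, in Ciart, and AGGTCA, the half-site of ROR and REV-ERB receptors, in Nfil3, both searched on both strands; TGACCT is the second motif on the other strand.
Ciart promoter: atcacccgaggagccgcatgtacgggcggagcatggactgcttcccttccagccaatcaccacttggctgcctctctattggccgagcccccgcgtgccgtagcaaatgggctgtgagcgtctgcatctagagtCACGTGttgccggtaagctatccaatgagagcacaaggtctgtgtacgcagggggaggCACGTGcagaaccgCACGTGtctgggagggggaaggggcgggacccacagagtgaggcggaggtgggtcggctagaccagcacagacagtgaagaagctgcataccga
Nfil3 promoter: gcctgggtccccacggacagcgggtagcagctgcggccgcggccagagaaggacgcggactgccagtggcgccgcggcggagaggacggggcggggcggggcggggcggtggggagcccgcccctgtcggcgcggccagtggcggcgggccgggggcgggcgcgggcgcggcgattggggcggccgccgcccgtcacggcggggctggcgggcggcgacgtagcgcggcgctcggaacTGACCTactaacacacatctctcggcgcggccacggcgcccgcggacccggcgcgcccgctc
The Ciart window (chr3:95882179-95882478, minus strand) held CACGTG at -116, -58 and -44 from the start site and the Nfil3 window (chr13:52980990-52981289, minus strand) AGGTCA at -12. CACGTG was in a promoter of 5 of 17 clock genes with an entry and in 7.15% of all 32851 promoters. AGGTCA was in a promoter of 5 of 17 and in 16.3% of all promoters. A gene counted if any of its promoters held the motif, so the 5 of 17 are not on the scale of the share per promoter.

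Genes of dividing cells differed between libraries at low levels. Of 23 proliferation genes 22 were tested, and 15 had a CV of at least 30% (median 36.3%), beside 4.36% of all genes tested (median 8.57%). Between 12 and 15 did when any 1 library was left out. Mki67, the Ki-67 antigen, was at 18.7, 25.3, 24.05, 16.1, 11.9 and 11.4 TMM-scaled CPM, and Top2a, the topoisomerase of mitotic chromosomes, at 16.3, 21.9, 20.5, 11.3, 8.77 and 7.5001. Cenpf, a kinetochore gene, was at 10.6, 16.3, 13.7, 8.04, 6.47 and 5.76 and Birc5, survivin, at 1.23, 2.08, 1.68, 0.967, 0.765 and 0.467. Each was highest in WT 2 and lowest in WT 6. Pcna and Mcm2, which act in DNA replication, stayed far below 30%: Pcna, the sliding clamp, was at 24.3, 24.7, 23.7, 22.9, 20.3 and 24.1 and Mcm2, a helicase subunit, at 8.54, 7.44, 8.71, 8.61, 7.29 and 8.13, with CVs of 6.67% and 7.05%. Of 57 histone genes tested 6 passed. At 1 to 5 CPM, where many of these genes lie, 12.4% of all genes passed.

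The Top2a promoter (RefSeq, GRCm38.p6, chr11:99024140-99024439, minus strand) is shown with CCAAT, the motif bound by NF-Y in many cell cycle promoters, in capitals; ATTGG is the motif on the other strand.
Top2a promoter: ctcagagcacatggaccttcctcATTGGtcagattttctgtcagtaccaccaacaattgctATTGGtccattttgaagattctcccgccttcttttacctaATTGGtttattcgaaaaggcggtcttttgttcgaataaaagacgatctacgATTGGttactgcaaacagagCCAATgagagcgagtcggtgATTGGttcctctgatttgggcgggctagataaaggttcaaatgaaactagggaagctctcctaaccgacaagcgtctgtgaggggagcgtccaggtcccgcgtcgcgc
It held 6 matches, at -227, -189, -149, -98, -78 and -58 from the start site. CCAAT was in a promoter of 18 of 20 proliferation genes with an entry and of 13 of 17 clock genes, and in 37.4% of all promoters. The list counts are per gene with any promoter holding the motif, so they are not on the scale of the share per promoter.

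Several immediate early genes, Hspa1a and the metallothioneins were lowest in WT 6. Immediate early genes are switched on within minutes by calcium and growth signals. Of 22 tested, out of 27 listed, 3 had a CV of at least 30%, beside 4.36% of all genes tested and 12.4% of those at 1 to 5 CPM. Fosb was at 33.1, 25.4, 27.05, 24.4, 21.7 and 10.1 TMM-scaled CPM and Npas4, an activity-dependent factor of neurons and beta cells, at 5.596, 3.55, 6.501, 5.26, 3.51 and 1.46. Without WT 6 the CVs of Fosb and Npas4 fell below 30%, to 17.4% and 27.5%. Junb was at 63.8, 59.3, 57.8, 51.6, 57.03 and 33.8. Fos and Jun, parts of AP-1, stayed below 30% at 89.3, 74.4, 76.1, 60.02, 61.2 and 39.98 and 78.6, 74.04, 78.7, 59.7, 58.5 and 44.98. In Fosb, Npas4, Fos and Jun WT 6 was the lowest library, and 12 of the 22 were lowest there, beside 22.0% of all genes tested. The heat shock gene Hspa1a was at 82.2, 75.4, 82.02, 66.5, 70.4 and 29.8, with WT 6 lowest and a CV of 28.9%, and its near-identical copy Hspa1b at 123, 107, 124, 95.2, 108 and 49.6; reads of the copies may be split. The metallothioneins Mt1 and Mt2, which bind zinc, were at 334, 296, 232, 245, 310.1 and 155 and 43.8, 42.5, 32.6, 41.2, 60.8 and 21.6, again lowest in WT 6, and only Mt2 passed 30%. WT 6 was lowest for 267 of the 607 variable genes (44.0%).

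Among ATF4 and CHOP targets 3 of 21 passed, beside 4.36% of all genes and 12.4% of those at 1 to 5 CPM, where Chac1 and Trib3 lie. They were Chac1, a glutathione-degrading enzyme, at 4.73, 5.01, 1.93, 1.95, 4.39 and 1.76 TMM-scaled CPM, Trib3, a pseudokinase, at 1.39, 1.498, 0.761, 0.899, 1.41 and 0.677, and Nupr1, a stress-linked chromatin protein, at 15.6, 14.2, 14.9, 19.6, 8.35 and 9.27. Chac1 and Trib3 were higher in WT 1, WT 2 and WT 5 than in the other 3 libraries, and Nupr1 was low in WT 5 and WT 6. Asns, asparagine synthetase, had a CV of 11.5%.

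Of 16 stromal genes 15 were lowest in WT 1, which was the lowest library for 15.9% of all genes tested, and none of the 16 reached 30%. WT 1 was also the lowest library for 13 of 20 genes known as disallowed in beta cells, 9 of 14 endothelial genes and 7 of 16 macrophage genes. The disallowed list shares at least Pdgfra with the stromal list, so its count is not separate from the stromal one. Col3a1, a fibrillar collagen, was at 213, 394, 367, 305, 279 and 281 TMM-scaled CPM, Col1a1 at 10.2, 24.1, 22.7, 19.9, 14.96 and 17.6 and the fibroblast receptor Pdgfra at 4.21, 8.36, 10.3, 6.87, 6.09 and 7.24. WT 1 was the lowest library for each of them. Rn18s-rs5, an entry related to 18S ribosomal RNA, was also lowest in WT 1, at 185, 407.5, 406, 317, 406.7 and 369. Hemoglobin genes, a sign of blood, were higher in WT 3 and WT 6: Hba-a1 was at 17.5, 16.4, 29.1, 19.8, 21.8 and 32.8 and Hbb-bs at 17.4, 17.96, 29.02, 22.1, 23.9 and 35.5; both have near-identical copies.

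Single genes outside the lists also stood out at 5 CPM or more. Rpl30-ps9, a processed pseudogene of a ribosomal protein gene, was at 19.9, 0.973, 0, 2.96, 5.81 and 27.3 TMM-scaled CPM, while its parent Rpl30, looked up after that, was at 109, 115, 105, 114, 102 and 126; reads of the copies may be split. Cish, an inhibitor of cytokine signals through STAT5, was at 4.196, 4.65, 11.7, 8.65, 5.01 and 2.44, highest in WT 3. Ppp1r3c, a subunit that directs a phosphatase to glycogen, was at 10.6, 8.98, 5.18, 2.77, 3.38 and 4.11, highest in WT 1 and WT 2. The X-linked Xlr3b was at 9.98, 12.9, 21.7, 10.1, 20.4 and 3.17.

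**Figure D5:**
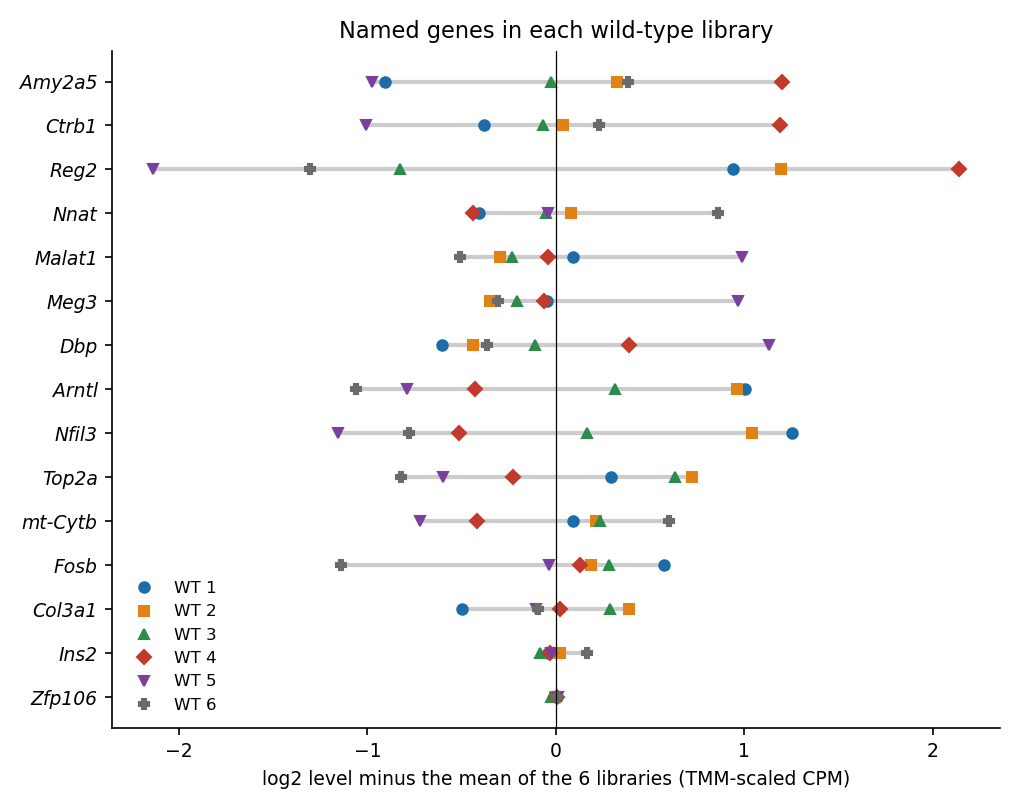
Log2 level minus the mean of the 6 libraries (x axis, TMM-scaled CPM) for 15 genes (y axis), with 1 marker per library. WT 4 leads the acinar genes and Reg2, WT 5 leads Malat1, Meg3 and Dbp, WT 1 and WT 2 lead Arntl and Nfil3, and the 6 markers of Zfp106 overlap.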

How the data were processed

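RNA of 6 wild-type islet libraries was analysed; 12 columns of other genotypes were not used. The authors deposited estimated counts per gene symbol, many of them fractional. Per the submitters' processing notes, STAR, HTSeq, GRCm38 and mm10 were named, without versions. Which step gave fractions, which annotation was counted and whether strand was used is not given in the sources used here. Without strand, reads of antisense and overlapping genes cannot be told apart.

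Levels are CPM of the library total, also without Rn7s1 and mt- genes. Lengths, classes and positions came from GENCODE M21 (GRCm38), matched by symbol for 49732 of 54186 symbols. For variation, library sizes were scaled by TMM (edgeR 4.0.16, R 4.3.3), and CV is the square root of the squared CV minus the mean of 1 over the expected count. A gene was called variable at a mean of at least 1 CPM and a CV of at least 30%. The chi-square index of dispersion (5 degrees of freedom, Benjamini-Hochberg adjusted p under 0.05) tested variation beyond counting error, and it covers counting error only. List deviations used a prior count of 2. Python 3.11.15, scipy 1.17.1, DESeq2 1.42.0 and matplotlib 3.10.9 were also used.

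Tested on simulated data over 13908 genes, counting error alone gave 0 variable genes, and 197 of 200 genes given a CV of 60% were called. Nothing in the labels says more of the replicates than that each library came from 1 mouse number. Named genes were the top 25 by level with and without Rn7s1 and mt- genes, the top 25 by CV at 5 CPM or more, the 10 lowest at 100 CPM or more, the top 6 by level and top 3 by CV of each list, and fixed hormone, sex-linked and cell type markers. The members and lists were chosen with earlier results of these data known. A few results are not reported here. Alternatives covered scaling, the CPM and CV thresholds, depth, gene length and each library left out.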

Additional observations from a re-analysis of the deposited data

Results flagged for a closer look

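Of 115 values examined, 16 had 1 library far from the other 5, with a gap to the nearest library divided by the range above Dixon's critical value for 6 samples. Chance gives about 1 in 20 such values, but many of these genes were named for their high CV over the same 6 libraries, so their number cannot be read against that rate. WT 5 was high in 7 genes and 2 shares: the ratio was 0.72 for Malat1, 0.844 for Meg3, 0.807 for Kcnq1ot1, 0.661 for Neat1, 0.772 for Rian, 0.674 for Lncpint and 0.771 for Slc38a6, 0.752 for the share of nuclear long noncoding RNAs and 0.676 for that of TEC models. Gcg was low in WT 5 (0.694). WT 6 was high for Ins1 (0.689), Cpe (0.696) and Nnat (0.703), and low for Hspa1a (0.7). WT 4 was high for the acinar gene Gp2 (0.661) and for Reg1 (0.657).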

How the results depend on the processing

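No paired analysis was possible because the libraries form 1 group with no contrast. Of 195 recomputed class and count values 176 stayed within the limits set for them. The limit was a fixed fold for counts and the SD between libraries for shares, list deviations and per-length levels. Leaving out 1 library cannot move a mean share by that SD, so those values were bound to pass. A reversal was looked for only in the list deviations, and none reversed. The number of variable genes was 2988 at a mean of at least 0.1 CPM, 194 at 5 CPM and 125 at 10 CPM, and it was 1513 with a CV of at least 20% and 205 with 50%. Other scalings gave 611 with DESeq2 size factors, 642 with library totals, 784 with totals without Rn7s1 and mt- genes and 603 with upper quartile scaling, and another estimator, edgeR's gene-wise biological CV, gave 418. Leaving out 1 library gave 392 to 683 variable genes, the lowest without WT 5, and 12827 to 13200 genes beyond counting error. With counts thinned to one part in 10 of the smallest library 7099 genes varied beyond counting error, so depth sets that count. Left-out ranges were 4 to 9 for the clock, 3 to 6 for mt- genes, 0 to 4 for nuclear long noncoding RNAs, 1 to 6 for small nucleolar RNAs and 33 to 133 for TEC models, which numbered 180 with totals without Rn7s1 and mt- genes. With the longest transcript as length, per-length levels were 130100 for Ins2, 86400 for Ins1, 48550 for Gcg, 12060 for Chga and 4382 for Sst. Of 103 genes of the text, 27 crossed the 30% line under some alternative. The cause of these shifts was not tested.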

Other observations

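No member reached a CV of 30% among 16 heat shock genes, 18 interferon response genes, 13 MHC genes, 19 glycolysis genes, 8 Schwann cell genes or 20 genes known as disallowed in beta cells, whose expression is kept low in normal islets. With 4.36% of all genes tested at or above 30%, a count of 0 is near the background for lists of this size. The median CVs were 13.1%, 13.2%, 8.68%, 7.04%, 17.7% and 12.7% in that order, beside 8.57% over all genes tested, so only glycolysis genes had a median below it. In the erythroid list 1 of 5 passed, in the PP and epsilon list 1 of 5, and among small nuclear and RNase RNAs 1 of 6. Of 1489 major urinary protein, keratin-associated and olfactory receptor genes only 6 reached a mean of 1 CPM. Of those 6, 4 were variable, beside 4.36% of all genes tested and 12.4% of those at 1 to 5 CPM. Their mean log2 deviation was 0.71 in WT 5. The mean they had to reach includes WT 5, so that deviation and the count of 4 are partly built in by the filter.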
